A study of Homo sapiens with 4 samples.

Results

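Kinesins are the motor proteins that walk along microtubules using ATP, and their genes carry the names KIF and KIFC. The genes described here are the 42 rows of the deposited table, of 57815 in all, whose symbol is KIF with a number and at most a family letter, or KIFC with a number. The choice used the names and none of the measured values. They were read in MDA-MB-231, a human breast cancer line of the triple-negative kind, and in LM2-4175, which was isolated from it and spreads to the lung. Both lines were untreated and grown in the same medium. Total RNA was extracted for library preparation, and 2 libraries of each line were sequenced, 4 in all. The deposited table holds 1 FPKM (fragments scaled to the length of the transcript and to the fragments mapped) per gene and line, with a lower and an upper bound, so there is no SD, no n and no p-value, and no difference has a replicate check.

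Most kinesins walk toward the plus end of the microtubule. One set works in dividing cells, where it pushes the spindle poles apart, moves or trims the microtubules that hold chromosomes, and builds the midbody at which daughter cells separate. Genes of this set are transcribed mainly late in the cell cycle, so their RNA is abundant where many cells divide. Another set carries vesicles, mitochondria and ciliary cargo in cells at any stage, and several of its members are made mainly in neurons. The genes were divided by textbook role into 15 mitotic kinesins, 17 transport kinesins and 10 others that act in cilia, at centrioles or in ways less well described. KIF2A, which works at spindle poles and also in neurons, was placed with the mitotic kinesins.

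The proximal promoters of 8 genes are printed, because many late cell cycle genes carry shared short motifs close to their start. The motifs searched on both strands were TTTGAA, which reads TTCAAA on the other strand and is the core of the cell cycle genes homology region that the DREAM and MuvB complexes bind, and CCAAT, which reads ATTGG on the other strand and is the site of NF-Y. They do not overlap each other. Each line gives the 100 bases before the RefSeq transcription start on GRCh38.p14, read 5′ to 3′ along the gene, with both motifs in capitals. The first 3 are the mitotic kinesins with the highest mean FPKM, the next 3 are mitotic kinesins with the motif that were chosen after the values were seen, and the last 2 are the genes called higher in LM2-4175. KIF6 has a second start in the RefSeq table, which is not shown and whose 100 bases hold neither motif.
KIF2C (chr1:44739737-44739836, plus strand): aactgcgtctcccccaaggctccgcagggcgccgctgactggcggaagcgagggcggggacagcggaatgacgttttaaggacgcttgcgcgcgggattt
KIF20A (chr5:138179012-138179111, plus strand): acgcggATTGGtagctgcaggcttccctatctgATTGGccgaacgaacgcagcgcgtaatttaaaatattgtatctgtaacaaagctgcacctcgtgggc
KIF23 (chr15:69414249-69414348, plus strand): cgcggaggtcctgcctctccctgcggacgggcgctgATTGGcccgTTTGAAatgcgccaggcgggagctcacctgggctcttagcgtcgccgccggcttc
KIF11 (chr10:92593030-92593129, plus strand): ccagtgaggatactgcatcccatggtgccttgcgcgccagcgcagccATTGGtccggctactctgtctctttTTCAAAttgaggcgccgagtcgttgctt
KIF4A (chrX:70290004-70290103, plus strand): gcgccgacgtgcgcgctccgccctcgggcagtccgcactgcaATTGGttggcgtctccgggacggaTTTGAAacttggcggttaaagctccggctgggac
KIF15 (chr3:44761694-44761793, plus strand): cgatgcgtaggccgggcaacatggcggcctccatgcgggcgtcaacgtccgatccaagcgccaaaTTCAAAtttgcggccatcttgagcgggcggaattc
KIF16B (chr20:16573449-16573548, minus strand): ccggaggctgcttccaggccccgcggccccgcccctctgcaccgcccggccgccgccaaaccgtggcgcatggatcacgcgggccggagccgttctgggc
KIF6 (chr6:39725409-39725508, minus strand): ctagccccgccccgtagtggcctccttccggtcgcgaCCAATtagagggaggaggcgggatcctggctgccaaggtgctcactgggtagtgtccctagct

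Of the mitotic kinesin genes, 10 of the 15 with a promoter in the RefSeq table held TTTGAA between 250 bases before and 50 bases after a start. The share was 18.2% over all 27305 genes of the table and 15.2% over its 35116 promoters. Among transport kinesins 1 of 12 genes held it, KIF5B at 140 bases before the start, and among the other kinesins 0 of 7 did. In KIF11 the motif began 28 bases before the start, in KIF4A 34, in KIF15 35 and in KIF23 55, and in KIF20B it stood 24 and 30 bases after it. All 10 mitotic genes had it within 60 bases of a start, a distance chosen after the positions were seen, against 6.26% of all genes. CCAAT was found in 11 of the 15 mitotic genes and in 39.7% of all genes, and 9 mitotic genes held both motifs, against 7.26% of all genes. KIF20A held CCAAT at 2 places and no TTTGAA, and the window of KIF2C held neither. Such a match describes letters in a window and is not evidence of binding.

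**Figure D1:**
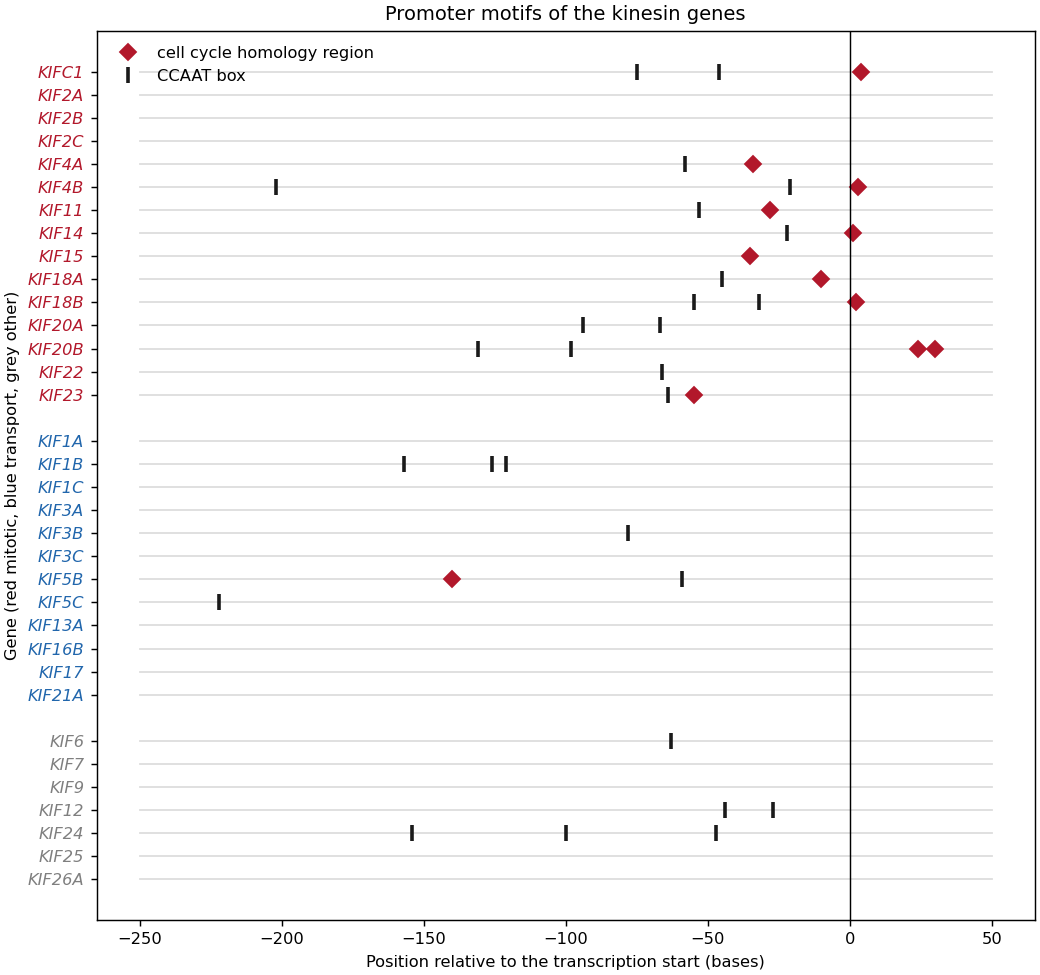
Positions of the TTTGAA core (red diamonds) and the CCAAT box (black ticks), on either strand, in the 300 bases around the RefSeq start of 34 kinesin genes, with the x axis in bases from the start and all starts of a gene drawn on 1 line. Red diamonds stand near the start in 10 mitotic genes, and 1 transport gene, KIF5B, has a diamond, at 140 bases before its start.

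Change was expressed as the log2 ratio of FPKM + 1, LM2-4175 over MDA-MB-231, which understates low genes. A gene was tested where its mean FPKM was at least 0.5, and it was called where the ratio reached 1.5-fold and the bounds of the lines did not overlap. This kept 30 of the 42 kinesins. Called were 2, KIF16B and KIF6, both higher in LM2-4175, and 0 were called lower. KIF6 passed the filter on low values only through LM2-4175, the line where it is high, so its call cannot count as support. Over all 13911 genes tested 9.27% were called, 4.67% higher and 4.61% lower. The share of kinesins called in either direction was no higher than 9.27%, and 2 calls are too few to compare by direction. The 0 lower calls follow from the bounds, since the fold without the bounds called KIF20A and KIF23 lower. No test with p-values was possible on these values.

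The mitotic kinesins had lower values in LM2-4175 for 11 of the 12 tested, although each pair of bounds overlapped. Their median log2 change was -0.31, against -0.04 for all genes tested, of which 54.5% were lower. After scaling to TPM, centring or quantile normalization, 10 of the 12 were lower. The transport kinesins were split, with 6 lower and 7 higher of 13 and a median of 0.03, so the medians of the sets differed by -0.35. Their split became 4 lower and 9 higher under the same 3 scalings. The 5 other kinesins tested had log2 changes above 0, with a median of 0.46. This count includes KIF6, which passed the filter only through LM2-4175, and KIF9 and KIF24 stood at only 0.02 and 0.03. After quantile normalization KIF9 and KIF24 stood just below 0, KIF27 and KIF7 above it, and KIF6 was under the filter. The exact TTTGAA string did not order the changes of the 12 mitotic kinesins. Variants of the string were not searched, so the comparison does not separate genes with and without a homology region. The 8 mitotic kinesins tested that held it had log2 changes from -0.63 to -0.03 with a median of -0.32, and the 4 without it from -0.88 to 0.14 with a median of -0.26.

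Genes listed as cell division markers mostly differed in the same direction as the mitotic set. Of all genes tested 54.5% were lower and 9.27% were called. Of 12 cell division markers 11 were lower in LM2-4175, none was called, and their FPKM summed to 1362 in MDA-MB-231 and 1094 in LM2-4175. The least changed of the 11 was LIN54, with 15.1 FPKM (4.90 to 25.2) and 14.3 FPKM (4.50 to 24.2). LIN54 and LIN9 are subunits of MuvB and need not mark dividing cells. The part of cell division in the values of the mitotic kinesins was not tested, and in such bulk RNA fewer dividing cells and less RNA per cell cannot be told apart.

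Summed over its 15 genes, the mitotic set had 568.0 FPKM in MDA-MB-231 and 430.1 FPKM in LM2-4175, a ratio of 0.757. The 17 transport genes summed to 336.4 and 341.1 FPKM, a ratio of 1.01. The mitotic set therefore made up 61.7% of the kinesin FPKM in MDA-MB-231 and 54.2% in LM2-4175. Over all genes of the table, FPKM summed to 632944 in MDA-MB-231 and 598147 in LM2-4175, a ratio of 0.945. The sums have no error of their own, and they count KIFC1 as 0 in both lines, a value that can be a failed estimate.

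**Figure D2:**
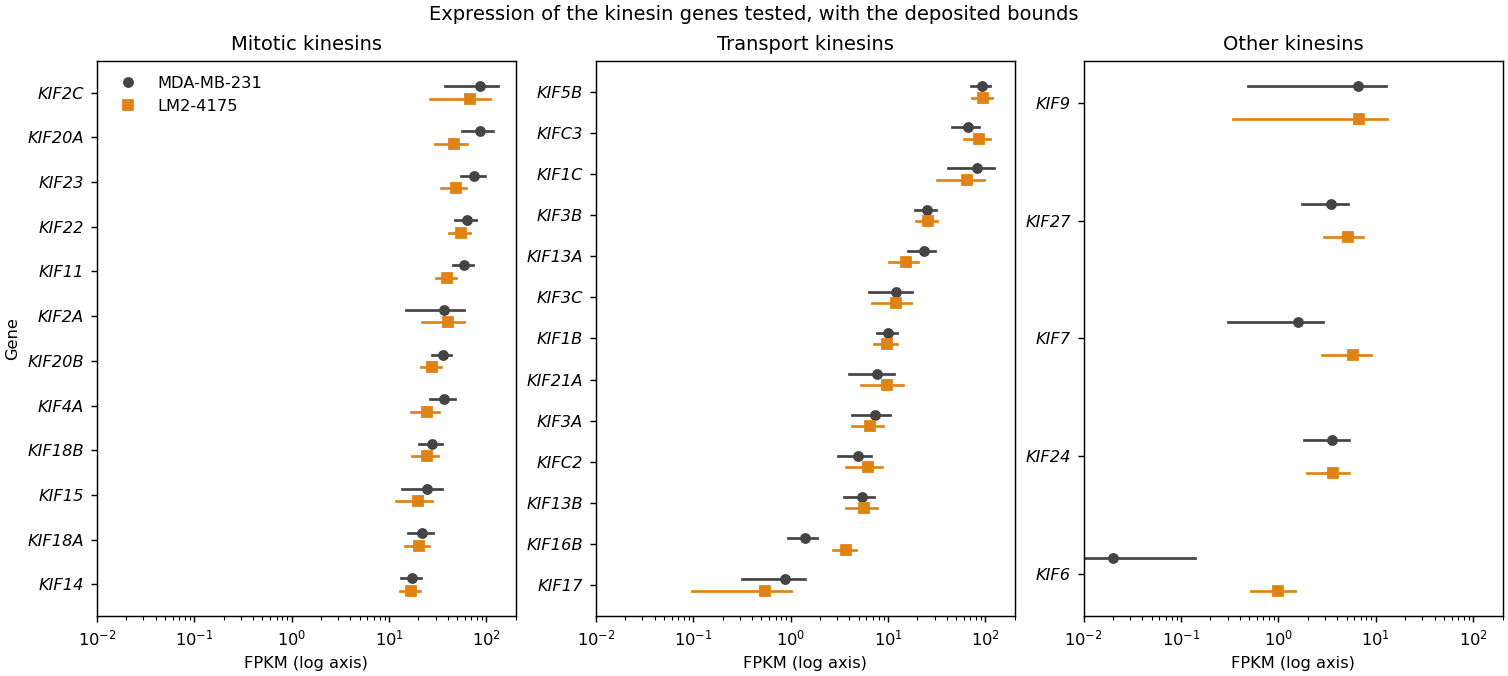
FPKM on a log axis of the 30 kinesin genes tested in MDA-MB-231 (grey circles) and LM2-4175 (orange squares), with lines for the deposited bounds, cut off at the left edge for KIF6. Bounds stand apart for KIF16B and KIF6, and most orange squares of the mitotic panel lie left of the grey circles.

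Among the kinesins of cytokinesis, KIF20A had the lowest log2 change of all kinesins tested. KIF20A, which brings the chromosomal passenger complex to the central spindle (chromosome 5 of GRCh37, 137514408 to 137523412), stood at 85.9 FPKM in MDA-MB-231 (bounds 56.2 to 116) and at 46.2 FPKM in LM2-4175 (bounds 29.4 to 63.0). This was a log2 change of -0.88, past 1.5-fold, and the upper bound in LM2-4175 reached above the lower bound in MDA-MB-231, so it was not called. KIF23, the motor of the centralspindlin complex (chromosome 15, 69706585 to 69740766), measured 75.3 FPKM (54.7 to 95.9) against 48.2 FPKM (34.4 to 62.0), a log2 change of -0.63 that also passed the fold but not the bounds. KIF20B, needed late in abscission, had 35.5 and 27.8 FPKM. KIF14, which works with citron kinase at the midbody, had 17.2 and 16.8 FPKM and the smallest change of the 12. All 4 members were lower, by -0.88 to -0.03 on the log2 scale, and together they summed to 213.9 FPKM in MDA-MB-231 against 139.1 FPKM in LM2-4175.

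The kinesins that set up the spindle were lower as well, without a call. KIF11, the homotetramer that slides antiparallel microtubules apart and the target of several antimitotic compounds, had 59.0 FPKM in MDA-MB-231 (45.7 to 72.4) and 39.5 FPKM in LM2-4175 (30.6 to 48.4). Its log2 change of -0.57 was just under 1.5-fold. KIF15, which can take over from KIF11 in holding the spindle bipolar, had 24.4 FPKM (13.7 to 35.1) and 19.6 FPKM (11.7 to 27.6). The third of this group, KIFC1, walks toward the minus end and gathers the spindle poles, and it was listed at 0 FPKM in both lines.

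The 0 of KIFC1 is shared by its surroundings on chromosome 6 (33359600 to 33377673 of GRCh37), next to the major histocompatibility complex. Of 31 protein-coding genes of the table within 500 kb, 26 were below 1 FPKM in both lines and 19 were listed at 0 in both. On the side of lower coordinates 20 of 21 genes were below 1 FPKM. Among them was RPS18, a ribosomal protein gene that every cell uses, at 0 in both lines. TUBB, a main beta-tubulin gene, was also listed at 0 in both. A listed 0 can be a failed estimate, so no level of KIFC1 can be read from this table.

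On chromosome arms and at kinetochores the differences were smaller except for KIF4A. KIF4A, a chromokinesin that shapes chromosomes and limits the length of the central spindle, had 37.0 FPKM in MDA-MB-231 (26.1 to 47.8) and 24.7 FPKM in LM2-4175 (16.8 to 32.5), a log2 change of -0.56. Its intronless copy KIF4B stood at 0.00229 and 0.00651 FPKM, and reads that fit both copies could have been assigned to either. KIF22, which pushes chromosome arms toward the equator, had 62.5 and 54.5 FPKM. KIF18A, which damps the swinging of chromosomes at metaphase, had 22.0 and 20.2 FPKM, and KIF18B, which trims astral microtubules, had 27.7 and 24.7 FPKM. CENPE, a kinetochore kinesin with a name of another kind, had 23.2 FPKM (14.5 to 31.9) and 21.9 FPKM (14.4 to 29.3).

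The microtubule depolymerases of the kinesin-13 family held the 1 mitotic member that was higher. KIF2C, which takes apart wrongly attached microtubules, had 84.9 FPKM in MDA-MB-231 and 67.3 FPKM in LM2-4175, with bounds as wide as 37.4 to 132 and 26.4 to 108. KIF2A measured 36.6 FPKM (14.9 to 58.3) against 40.5 FPKM (21.9 to 59.1), with a log2 change of 0.14. Exons of other genes overlapped 21.3% of its exon bases, most of all kinesins, and since counting by strand is not stated, their reads could not be told apart. KIF2B was listed at 0 in both lines. Since KIF2A was the 1 mitotic member that was higher, moving it out of the set left 11 of 11 lower by construction. After scaling to TPM, KIF14 was higher as well, with a log2 change of 0.05.

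**Figure D3:**
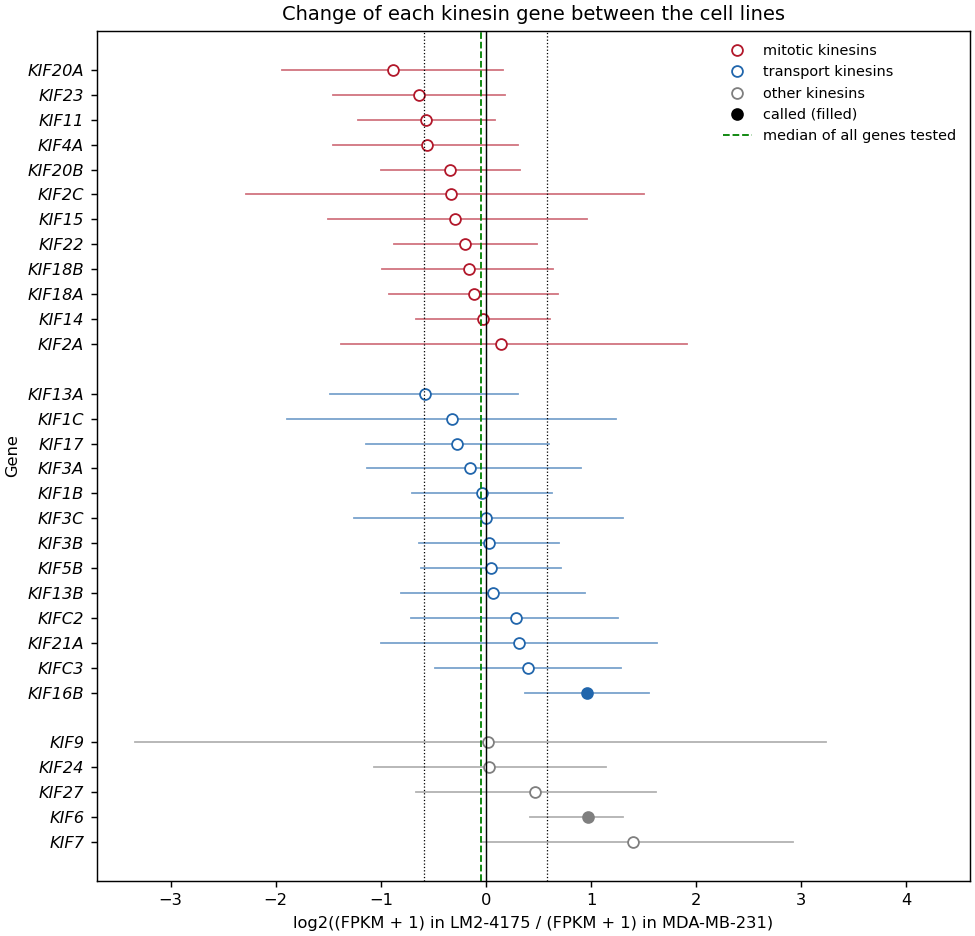
log2 ratio of FPKM + 1 for each kinesin tested, LM2-4175 over MDA-MB-231, where lines run between the most extreme ratios that the bounds of both lines allow, dotted lines mark 1.5-fold and the dashed line the median of all genes tested. Filled points are the 2 genes called, KIF16B and KIF6, and 11 of 12 mitotic points lie left of 0.

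KIF16B was the transport kinesin called higher. It moves early endosomes, which its PX domain recognizes by their phosphoinositide (chromosome 20, 16252749 to 16554093, minus strand). KIF16B rose from 1.41 FPKM in MDA-MB-231 (0.946 to 1.88) to 3.70 FPKM in LM2-4175 (2.71 to 4.70), a log2 change of 0.96 and a ratio of 2.62 without the pseudocount. No exon of another gene overlapped it. Its call was lost with a pseudocount of 5, with a fold of 2 on the FPKM + 1 scale, and with the filter at 5 FPKM, which left it out.

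The rest of the kinesin-3 family, which carries vesicles over long distances, showed no call. KIF13A, which moves recycling endosomes and mannose 6-phosphate receptors, had 23.2 FPKM in MDA-MB-231 (16.1 to 30.2) and 15.1 FPKM in LM2-4175 (10.2 to 20.1), just under 1.5-fold with a log2 change of -0.58. KIF1C, which carries integrins and supports Golgi traffic, had 81.2 and 64.8 FPKM with wide bounds of 41.0 to 121 and 32.0 to 97.7. KIF1B, a carrier of mitochondria and synaptic vesicle precursors, had 10.0 and 9.75 FPKM, and KIF13B had 5.37 and 5.68 FPKM. KIF1A, the neuronal member, was at 0.0285 and 0.0216 FPKM.

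The kinesin with the highest FPKM in both lines was KIF5B, the heavy chain of conventional kinesin found in most cells, with 91.5 FPKM in MDA-MB-231 (70.4 to 113) and 94.7 FPKM in LM2-4175 (73.1 to 116). Its neuronal relatives KIF5A and KIF5C had at most 0.104 FPKM. In MDA-MB-231 the next genes in order were KIF20A, KIF2C, KIF1C, KIF23 and KIFC3, and in LM2-4175 they were KIFC3, KIF2C, KIF1C, KIF22 and KIF23. Neighbours in these orders had overlapping bounds. KIF20A was the second in MDA-MB-231 and stood at place 7 in LM2-4175.

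Of the kinesin-2 motors, KIF3A, KIF3B and KIF3C had log2 changes between -0.15 and 0.03. KIF3A had 7.40 and 6.55 FPKM, its partner KIF3B 24.9 and 25.5 FPKM, and KIF3C 12.0 FPKM in each. KIFAP3, the subunit that links KIF3A and KIF3B to cargo, had 9.98 and 12.1 FPKM. KIF17 lay near the filter with 0.870 FPKM (0.320 to 1.42) and 0.549 FPKM (0.0978 to 1.00), a log2 change of -0.27 that became -0.58 with a pseudocount of 0.1. The minus-end directed transport motors were both higher in LM2-4175 without a call. KIFC3, which acts at the Golgi and at cell junctions, had 65.5 FPKM (45.5 to 85.6) and 86.5 FPKM (60.8 to 112), and KIFC2 had 4.90 and 6.22 FPKM. Exons of FOXH1 overlapped 17.8% of the exon bases of KIFC2. KIF21A, which restrains microtubule growth at the cell cortex, had 7.72 and 9.81 FPKM. KIF21B was under the filter, with 0.294 FPKM (0.177 to 0.411) and 0.00503 FPKM (0 to 0.0245), so its bounds stood apart at a very low level.

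Among the other kinesins, KIF6 was called higher at the edge of the filter. KIF6, a kinesin-9 linked to cilia (chromosome 6, 39297766 to 39693184, minus strand), measured 0.0198 FPKM in MDA-MB-231 (0 to 0.137) and 0.994 FPKM in LM2-4175 (0.519 to 1.47). The pseudocount set the size of this change, which was 0.97 on the log2 scale, 3.19 with a pseudocount of 0.1 and 0.26 with one of 5. The mean of the lines was 0.507 FPKM. KIF6 was therefore under a minimum of 1 FPKM, it was under the filter after quantile normalization too, and it was not called with a pseudocount of 5 or at 2-fold. KIF7, which controls Hedgehog signalling at the tip of the primary cilium (chromosome 15, 90152020 to 90206317, minus strand), had the highest log2 change of the kinesins, 1.40, from 1.59 FPKM (0.303 to 2.88) to 5.83 FPKM (2.77 to 8.89). Its bounds overlapped by a small margin, so it was not called, and it was called after scaling to TPM.

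KIF27, the relative of KIF7, had 3.46 and 5.15 FPKM, a log2 change of 0.46 with overlapping bounds. KIF24, which acts at the mother centriole, had 3.53 and 3.62 FPKM. KIF9 had 6.52 and 6.64 FPKM with bounds of 0.483 to 12.6 and 0.339 to 12.9, so its values allow changes in either direction. Exons of other genes overlapped 17.8% of KIF9 and 10.8% of KIF7. The 12 kinesins under the filter were at most 0.360 FPKM in either line, and KIF2B, KIFC1 and KIF19 were listed at 0 in both. KIF26B, a kinesin without motor activity, was the other gene under the filter whose bounds stood apart, at 0.286 FPKM (0.165 to 0.406) and 0.0797 FPKM (0.00503 to 0.154). KIF25 had 0.135 and 0.360 FPKM with both lower bounds at 0, and KIF12 and KIF26A had between 0.0110 and 0.0402 FPKM.

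Each kinesin was compared with the protein-coding genes tested within 3 Mb, to see whether its surroundings differed in the same direction. The mitotic kinesins tested had neighbours with medians from -0.08 to 0.05 on the log2 scale, and 10 of the 12 lay below that median. KIF20A, for example, had 47 neighbours with a median of 0.00, 23 of them higher and 24 lower. KIF7 lay among 35 neighbours of which all 35 were higher, 12 of them called, with a median of 0.90. KIF6 went the other way from its surroundings, where 35 of 39 genes were lower with a median of -0.54. KIF16B had 20 neighbours with a median of 0.10.

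Across the 30 kinesins tested, which share the libraries and are not independent, Pearson's r between the change of a gene and the median of its neighbours was 0.31 and Spearman's rho 0.03. Without KIF7, r was -0.20. That value still includes KIF6, with a change of 0.97 and the lowest neighbour median of the 30 kinesins, -0.54. KIF6 passed the filter only through the line where it is high. The r without KIF6 was not tested, so no sign of a relation can be read from these values. The part of the surroundings in the value of KIF7 was not tested.

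**Figure D4:**
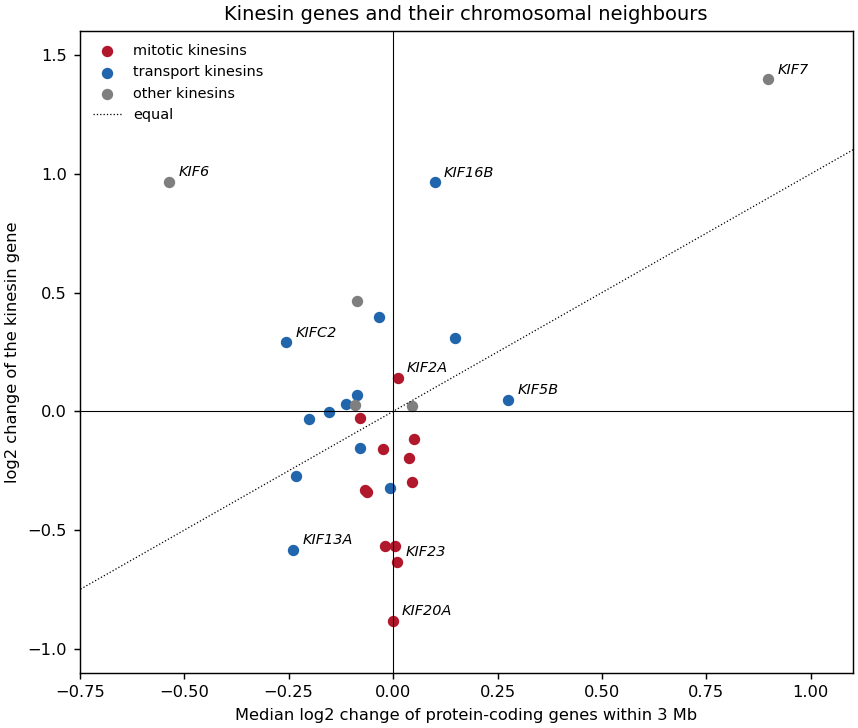
log2 change of each kinesin tested (y axis) against the median log2 change of the protein-coding genes within 3 Mb (x axis), with a dotted line where both are equal. The red mitotic points lie in a narrow column between -0.08 and 0.05 on the x axis, KIF7 stands at upper right and KIF6 at upper left.

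Genes that act with the mitotic kinesins had the same tilt. Of 20 spindle and midbody partners, 19 were lower in LM2-4175, with a median log2 change of -0.39. The 2 called were both lower. Of all genes tested 54.5% were lower, 9.27% were called in either direction and 4.61% were called lower. CDCA8, a subunit of the passenger complex that KIF20A carries, fell from 67.1 FPKM (51.8 to 82.4) to 40.9 FPKM (31.4 to 50.4). BUB1, a spindle checkpoint kinase, fell from 99.4 FPKM (75.7 to 123) to 59.8 FPKM (45.6 to 74.0). ANLN, a scaffold of the contractile ring, had 250.2 FPKM (158 to 342) and 121.2 FPKM (77.3 to 165) and was not called, since its bounds overlapped. RACGAP1, the partner of KIF23 in centralspindlin, had 106.4 and 87.5 FPKM with overlapping bounds.

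The 1 partner that was higher was PRC1, the microtubule crosslinker that brings KIF4A to the central spindle, with 160.0 FPKM in MDA-MB-231 (104 to 216) and 254.4 FPKM in LM2-4175 (160.2 to 349). PRC1 lies on chromosome 15 near KIF7, and all 36 of its neighbours tested were higher, with a median of 0.92. For the other partners named, the neighbours of ANLN had a median of -0.55 and those of BUB1 -0.27. For CDCA8 this median was -0.05 and for RACGAP1 0.10. The part of the surroundings in the values of the partners was not tested. TTTGAA was found within 60 bases of a start in 13 of the 16 partners with a promoter in the table. This distance was chosen after the positions were seen. Within it, 6.26% of all genes and 3 of 11 cell division markers held the motif.

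The 12 cell division markers had a median log2 change of -0.29. The largest changes were those of the cyclins CCNA2, with 93.2 FPKM (68.9 to 118) and 58.6 FPKM (42.2 to 75.1), and CCNB1, with 277.4 FPKM (211 to 343) and 184.2 FPKM (140 to 228). Both passed 1.5-fold and had overlapping bounds. MKI67, the antigen of the Ki-67 stain, had 63.3 and 56.2 FPKM, and CDK1, the kinase that drives entry into mitosis and the 1 marker that was higher, had 132.5 and 156.5 FPKM.

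Genes that serve the transport kinesins did not share the tilt of the mitotic set. Of all genes tested 54.5% were lower and 9.27% were called. Of 20 light chains and cargo adaptors tested, 11 were lower and 9 higher, with a median of -0.05 and no call. The largest log2 changes among them were those of KLC3, a light chain, with 3.39 and 0.843 FPKM and both lower bounds at 0, and of RHOT1, a mitochondrial adaptor, with 14.6 FPKM (10.4 to 18.8) and 8.12 FPKM (5.64 to 10.6).

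Cytoplasmic dynein and dynactin, which walk the other way, had 18 of 27 genes lower, against 54.5% of all genes tested. Their median was -0.11 and none was called, where 9.27% of all genes tested were called. DYNC1H1, the dynein heavy chain, was higher, with 75.4 FPKM (48.5 to 102) and 130.7 FPKM (80.7 to 181), and so was DYNC2H1, the heavy chain that works in cilia, with 1.85 FPKM (1.03 to 2.68) and 3.45 FPKM (1.26 to 5.65). Bounds overlapped for both.

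Tubulins, which form the track, had 7 genes lower and 7 higher with a median of -0.04, and 4 were called, where 9.27% were called over all genes tested. TUBB3 fell from 45.3 FPKM (30.0 to 60.7) to 20.4 FPKM (11.2 to 29.5), TUBB2A from 34.7 to 15.8 FPKM and TUBB4B from 762.0 to 444.5 FPKM. TUBB4A rose from 0.0600 FPKM (0 to 0.329) to 1.88 FPKM (1.08 to 2.69), and it passed the filter only through LM2-4175. STARD9, a mitotic kinesin with a name of another kind, had 1.34 and 1.79 FPKM.

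**Figure D5:**
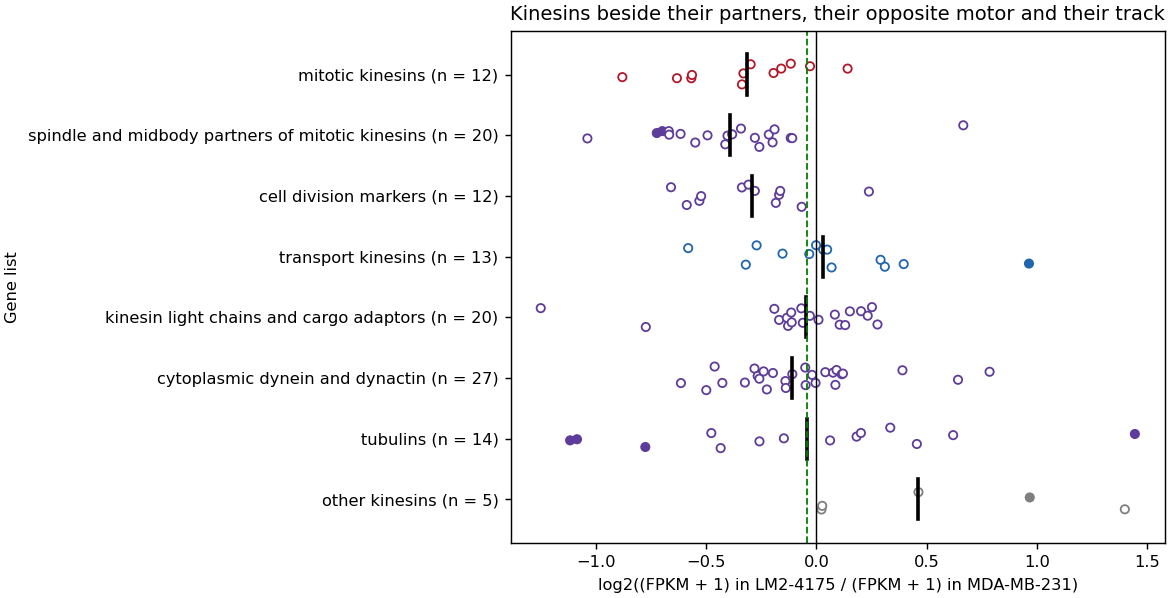
log2 ratio of FPKM + 1, LM2-4175 over MDA-MB-231, for the genes tested in each list, with black bars for list medians, filled points for genes called and a dashed line for the median of all genes tested. The mitotic kinesins, their partners and the cell division markers lie mostly left of 0, with medians of -0.31, -0.39 and -0.29, while the transport kinesins centre at 0.03.

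Markers of the tissue and receptor class, which both lines share and which do not tell one from the other, were read as a check of the labels. VIM had 1355 and 1768 FPKM and CD44 469.7 and 355.0 FPKM in MDA-MB-231 and LM2-4175, while ESR1 and PGR were at most 0.0331 FPKM. ERBB2 was present at 35.0 and 22.8 FPKM. Among white blood cell genes, CD3E was listed at 0 in both lines, PTPRC had 0.0767 and 0.0263 FPKM, LYZ had 0.448 and 0.160 FPKM, and CD14 had 1.17 and 1.75 FPKM.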

How the data were processed

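RNA-Seq covered MDA-MB-231 and LM2-4175, with 2 libraries per line. The authors used TopHat2 for alignment to hg19 and Cufflinks for quantification of GENCODE genes. They deposited FPKM per gene and line, both libraries combined, beside lower bounds, upper bounds and a status. Normalization between libraries, the strand setting and what the bounds cover are not given in the sources used here. FPKM carry no read counts, and the aligned reads per library that the study states are not used here, so precision was taken from the bounds. For the kinesins tested, the upper bound lay a median of 34.7% above the FPKM in MDA-MB-231 and 34.8% in LM2-4175.

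Genes with status OK in both lines and a mean of at least 0.5 FPKM were tested, with a pseudocount of 1. The call rule, computed with pandas 2.3.3, NumPy 2.4.6 and SciPy 1.17.1 under Python 3.11.15 and plotted with Matplotlib 3.10.9, was checked on simulated data. It compares 1 value per line, so no test over libraries was run. Other pseudocounts, filters, scalings, folds and parts of the call rule were tried. The roles, lists and motifs were chosen with earlier results of these data known. Every kinesin tested is named, and of each further list the genes called or else those with the largest changes, with a few other genes named after their values were seen. Positions, types and exon overlaps came from GENCODE 44 on GRCh37, which is hg19, and all 42 deposited kinesin loci overlapped the annotated gene. Of the 42 kinesins, 34 had a promoter in the RefSeq table on GRCh38.p14, and no coordinates were carried between builds.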

Additional observations from a re-analysis of the deposited data

How the results depend on the processing

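No paired analysis was possible because the deposited table holds 1 value per cell line, and leaving out a library could not be run for the same reason. The 2 higher calls became 0 with a pseudocount of 5, with a minimum mean of 5 FPKM and at 2-fold, and became 1 with a minimum of 1 FPKM and after quantile normalization. The number of lower calls, 0, became 2 with the fold alone. Quantile normalization moved the median of the mitotic kinesins to -0.21 and its difference from the transport kinesins to -0.25. The other alternatives left these medians within 0.1. KIF16B and KIF6 lost their calls with a pseudocount of 5, and KIF7 gained one after scaling to TPM. The log2 change of KIF7 moved from 1.40 to 0.72 with a pseudocount of 5. The cause of these moves was not tested, beyond the fewer genes left by the stricter filters. The width of the bounds limits calls to large differences. Over all genes tested, the 649 higher and 641 lower calls became 415 and 484 with a pseudocount of 5, 321 and 443 with a minimum of 5 FPKM, 450 and 403 at 2-fold, and 1434 and 1640 with the fold alone.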
